A study of Mus musculus with 11 samples.

Results

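The mitosis genes described here are 39 protein-coding genes that act in late cell cycle, mitotic entry, spindle assembly, chromosome segregation and cytokinesis. They were chosen by name, as rows of the deposited tables whose gene name is on a list of known mitotic genes, and all 39 were found among the 26283 genes listed. The list was drawn up with earlier results of these data known, so counts of its genes set beside all genes are description and not a test. Transcript levels were measured by RNA sequencing in 11 mammary tumors, taken from C57BL/6 mice at 18 weeks of age. All of the mice carried MMTV-PyMT, which drives mammary tumors through the polyomavirus middle T antigen, together with MMTV-Cre. The 6 tumors called PyMT *Pcbp1*–/– came from mice with floxed *Pcbp1* alleles, Pcbp1(fl/fl), and the 5 PyMT *Pcbp1*+/+ tumors from mice with Pcbp1(wt/wt). Cre is driven by the MMTV promoter, so the deletion is directed to the mammary epithelium and other cells of the tumor keep the gene. The labels put all tumors in a single batch and number the tumors within each group. Whole tumor tissue was sequenced, so more dividing cells and more RNA of a gene per dividing cell cannot be told apart. The labels do not state whether each tumor came from a different mouse, so the p-values measure the spread between tumors.

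*Pcbp1*, the poly(rC)-binding protein gene that was deleted, was measured first as a check of the labels. Its level is given in CPM, counts per 1000000 counts of the tumor. It lay at 15.4 to 33.6 CPM (median 20.9) in the *Pcbp1*–/– tumors and at 268, 271, 225, 219.5 and 259 CPM in *Pcbp1*+/+ tumors 1 to 5. Every knockout tumor was below every wild-type tumor, with a log2 fold change of -3.43 (SE 0.19, adjusted p = 4.72e-06) in edgeR. Total counts were 11708900, 13334600, 11239900, 13674700, 14092200 and 12937000 in *Pcbp1*–/– tumors 1 to 6 and 10945800, 10543200, 11411800, 10975700 and 11198200 in *Pcbp1*+/+ tumors 1 to 5. The knockout libraries were deeper on average, with tumor 3 within the wild-type range (exact permutation test on the difference of means, two-sided p = 0.0173). Depth therefore went with genotype, and its part in the results was not tested. At these depths 3 counts, the limit that a count of 0 allows, correspond to 0.213 to 0.285 CPM. The lowest count of any mitosis gene in any tumor was 4. CPM divide by the total count alone, whereas edgeR also applied scaling factors (TMM), from 0.922 in *Pcbp1*+/+ tumor 3 to 1.076 in *Pcbp1*+/+ tumor 1. Tumors with close CPM can therefore stand in another order in the test.

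Cells about to divide build up cyclins that switch on CDK1, and CDK1 together with the Polo and Aurora kinases starts chromosome condensation and spindle formation. Kinetochores then tie chromosomes to spindle microtubules, the spindle checkpoint delays anaphase until all are attached, and the anaphase-promoting complex marks cyclin B and securin for destruction. Many of these genes are transcribed late in the cell cycle through the MuvB complex, MYBL2 and FOXM1, so their RNA is abundant mainly in dividing cells, and *Mki67* and *Top2a* are common markers of proliferation in breast tumors.

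All 39 mitosis genes passed the low-count filter, and all 39 had a positive log2 fold change, *Pcbp1*–/– over *Pcbp1*+/+. The median over the 39 genes was 0.41, against 0.00 over all 19232 genes tested, of which 50% had a positive value. No mitosis gene passed an adjusted p of 0.05 in edgeR, in either direction, where 117 genes (0.608% of those tested) were called higher and 319 genes (1.66%) lower. At an unadjusted p under 0.05, 19 of the 39 were higher and none lower, beside 8.19% of all genes tested that were higher by that rule. Other tests of the same tumors gave other counts. DESeq2 called 11 of the 39 higher, beside 2.31% of all genes it tested, and limma-voom with sample quality weights called 19, beside 5.03%. In CPM, without the TMM factors, the values of 1 gene, *Nek2*, did not overlap between the groups. By that rule 1.27% of all genes tested were higher in every *Pcbp1*–/– tumor than in every *Pcbp1*+/+ tumor. Differences ran from a log2 fold change of 0.01 for *Kif23* to 0.71 for *Melk*, and the standard errors ran from 0.13 to 0.39 with a median of 0.18.

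**Figure D1:**
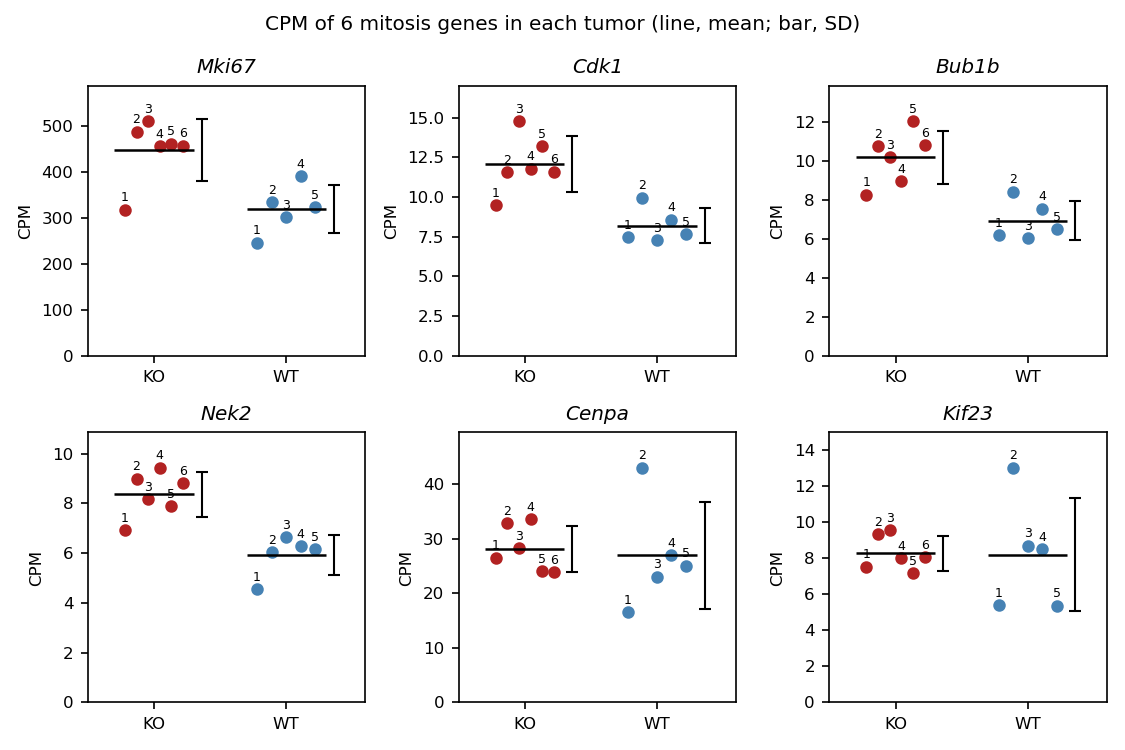
CPM of *Mki67*, *Cdk1*, *Bub1b*, *Nek2*, *Cenpa* and *Kif23* in each of the 6 *Pcbp1*–/– (KO) and 5 *Pcbp1*+/+ (WT) tumors; each point is a tumor with its number, the line is the group mean and the bar beside it the SD. Every *Nek2* value in the knockout tumors lies above the highest wild-type value of 6.65 CPM, whereas wild-type tumor 2 has the highest *Cenpa* (43.0 CPM) and *Kif23* (13.0 CPM) of all. These CPM do not carry the TMM factors of edgeR, with which the *Nek2* values of the groups overlap.

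The tumors of a group differed among themselves, and the same tumors stood at the ends for most genes. *Pcbp1*–/– tumor 1 was the lowest knockout tumor for 28 of the 39 genes and the highest for none. *Pcbp1*+/+ tumor 1 was the lowest of all 11 tumors for 29 genes. In contrast, *Pcbp1*+/+ tumor 2 was the highest wild-type tumor for 31 genes and the highest of all tumors for 7, and *Pcbp1*–/– tumor 5 was the highest of all for 14. Each tumor was also given the median over the 39 genes of its log2 level relative to the mean of the *Pcbp1*+/+ tumors, with 0.1 CPM added to every value. These medians were 0.05, 0.48, 0.44, 0.50, 0.59 and 0.38 for *Pcbp1*–/– tumors 1 to 6 and -0.43, 0.40, -0.17, 0.06 and 0.02 for *Pcbp1*+/+ tumors 1 to 5. Knockout tumors 2 to 5 lay above every wild-type tumor, tumor 6 was close below wild-type tumor 2, and knockout tumor 1 lay within the wild-type range. Summed over the 39 genes, the level was 1108 ± 141 CPM (SD, n = 6) in the *Pcbp1*–/– tumors and 826 ± 158 CPM (SD, n = 5) in the *Pcbp1*+/+ tumors, and these sums overlapped between the groups.

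**Figure D2:**
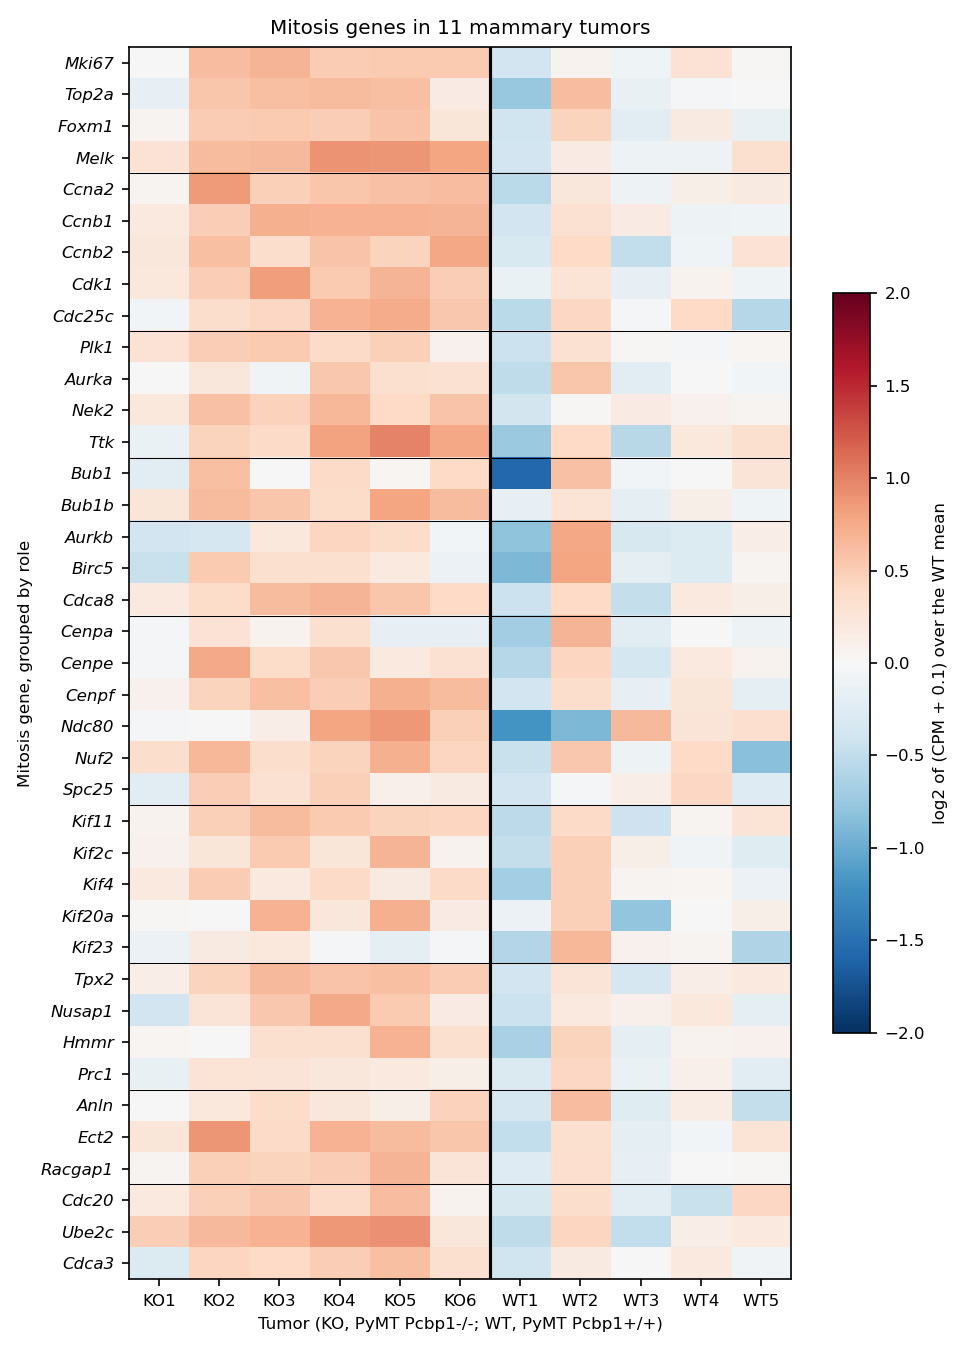
Level of each of the 39 mitosis genes (rows, grouped by role) in each tumor (columns; KO, *Pcbp1*–/–; WT, *Pcbp1*+/+), as the log2 of CPM plus 0.1 over the mean of the WT tumors; red is above that mean and blue below. KO1 is paler than the other KO columns, WT1 is the bluest column and WT2 is red in most rows, with medians over the genes of 0.05, -0.43 and 0.40.

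Transcript abundance differed widely between the mitosis genes. Per kilobase of their longest annotated transcript, the wild-type means ran from 0.252 CPM for *Ndc80*, a subunit of the kinetochore complex that grips microtubules, to 31.2 CPM for *Mki67*. After *Mki67* the most abundant on this scale were *Ccna2* (11.3), *Aurkb* (9.56), *Prc1* (8.66), *Cdc20* (7.03) and *Top2a* (6.93), and the median over the 39 genes was 2.83 CPM per kilobase. The longest transcript need not be the one expressed in these tumors, so this order is approximate. *Ndc80* also had the widest interval, -0.41 to 1.28 on the log2 scale.

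Of the proliferation markers and regulators, *Mki67*, *Top2a*, *Foxm1* and *Melk*, 3 of 4 had an unadjusted p under 0.05. *Mki67* encodes the Ki-67 protein that coats mitotic chromosomes. It was at 318 to 511 CPM (median 460.2) in the *Pcbp1*–/– tumors and at 246, 335, 302, 392 and 324 CPM in *Pcbp1*+/+ tumors 1 to 5. Knockout tumor 1, at 318 CPM, lay among the wild-type tumors, and the other 5 lay above all of them. The test gave a log2 fold change of 0.49 (SE 0.14, adjusted p = 0.101). *Melk*, a kinase gene expressed in dividing cells, had the largest fold change of the 39 genes. Its levels were 5.30 to 8.12 CPM (median 7.21) in the knockout tumors against 3.29, 4.84, 4.03, 4.01 and 5.45 CPM in the wild-type tumors, with a log2 fold change of 0.71 (SE 0.18, adjusted p = 0.0612). Only knockout tumor 1 overlapped the wild-type values, being just under wild-type tumor 5. *Top2a*, the topoisomerase that untangles sister chromatids, had the largest p of these 4. It ranged over 34.6 to 59.9 CPM (median 57.9) in *Pcbp1*–/– tumors and was 22.9, 59.4, 35.1, 37.6 and 38.7 CPM in *Pcbp1*+/+ tumors, so that wild-type tumor 2 stood among the highest knockout tumors and knockout tumor 1 among the other wild-type tumors. Its log2 fold change of 0.42 (SE 0.22, adjusted p = 0.332) did not pass, and without wild-type tumor 1 the log2 fold change was 0.27. *Foxm1*, a transcription factor gene of the late cell cycle, had a log2 fold change of 0.41, and 4 of 6 knockout tumors exceeded every wild-type tumor.

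The cyclins, their kinase and its activating phosphatase formed the group with the smallest p-values, 4 of 5 genes being under 0.05 unadjusted, and their log2 fold changes lay between 0.50 and 0.59. *Cdk1*, the kinase that triggers mitosis, had the smallest p of the 39 mitosis genes. The knockout tumors held 9.48 to 14.8 CPM (median 11.7) and the wild-type tumors 7.49, 9.96, 7.27, 8.57 and 7.68 CPM. Wild-type tumor 2 exceeded knockout tumor 1 by a small margin, and the groups did not otherwise overlap. Its log2 fold change of 0.56 (SE 0.13, adjusted p = 0.0510) lay just outside the threshold in edgeR, and over the alternative analyses its adjusted p ran from 0.00594 in DESeq2 to 0.114. *Cdc25c*, whose product removes the inhibitory phosphates from CDK1, was at 1.96 to 3.48 CPM (median 2.89) in *Pcbp1*–/– tumors and 1.37, 2.75, 2.02, 2.73 and 1.34 CPM in *Pcbp1*+/+ tumors. Knockout tumors 1 and 2 were within the wild-type range, and the log2 fold change of 0.50 (SE 0.24, adjusted p = 0.298) did not pass. For the cyclin genes *Ccna2*, *Ccnb1* and *Ccnb2* the log2 fold changes were 0.54, 0.59 and 0.52, with 5, 5 and 4 of the 6 knockout tumors above every wild-type tumor. *Ccna2* overlaps *Exosc9* on the other strand and its deposited counts were not whole numbers in any tumor, so reads may have been divided between both genes.

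Among the mitotic kinases *Plk1*, *Aurka*, *Nek2* and *Ttk*, 3 of 4 had an unadjusted p under 0.05. *Nek2* encodes a centrosome kinase that helps separate the spindle poles. Its level was 6.92 to 9.44 CPM (median 8.50) in the knockout tumors and 4.56, 6.03, 6.65, 6.28 and 6.16 CPM in the wild-type tumors. The lowest knockout tumor, number 1, was above the highest wild-type tumor, number 3, although by less than the SD of either group (0.906 and 0.803 CPM). The TMM factors of edgeR were 1.015 for knockout tumor 1 and 0.922 for wild-type tumor 3. Divided by them, wild-type tumor 3 lies above knockout tumor 1, so the groups overlap on that scale. The log2 fold change of 0.48 (SE 0.15, adjusted p = 0.106) did not pass. *Nek2* overlaps an annotated antisense gene, and most of its deposited counts were not whole, so its values carry that uncertainty. *Aurka*, the Aurora kinase of the spindle poles, had 10.9 to 16.7 CPM (median 13.8) in *Pcbp1*–/– tumors and 8.04, 16.9, 9.81, 11.6 and 11.1 CPM in *Pcbp1*+/+ tumors. Here wild-type tumor 2 was the highest of all 11 and wild-type tumor 1 the lowest, and the log2 fold change of 0.24 (SE 0.18, adjusted p = 0.517) was well within the spread. *Plk1*, the Polo kinase, and *Ttk*, the checkpoint kinase also called MPS1, had log2 fold changes of 0.38 and 0.61, in each case with 4 of 6 knockout tumors above every wild-type tumor.

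The spindle checkpoint kinase genes differed from each other in precision. *Bub1b*, which encodes BUBR1, a part of the inhibitor of the anaphase-promoting complex, measured 8.29 to 12.1 CPM (median 10.5) in the knockout tumors and 6.21, 8.44, 6.05, 7.56 and 6.52 CPM in the wild-type tumors. Of the knockout tumors only number 1 was under the highest wild-type value, that of tumor 2. Its log2 fold change of 0.55 (SE 0.13, adjusted p = 0.0526) had the next smallest p after *Cdk1*. *Bub1*, the kinase that brings shugoshin to centromeres, was at 2.73 to 4.87 CPM (median 3.72) against 1.00, 4.84, 3.07, 3.19 and 3.84 CPM. Wild-type tumor 1 was far below all other tumors and the remaining wild-type tumors lay among the knockout tumors, with a log2 fold change of 0.22 (SE 0.32, adjusted p = 0.746). Without wild-type tumor 1 its log2 fold change was -0.01, without wild-type tumor 2 0.41 and without knockout tumor 2 0.15.

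The chromosomal passenger complex corrects faulty attachments at centromeres, and the members measured were *Aurkb*, *Birc5* and *Cdca8*. *Cdca8*, which encodes borealin, was at 11.0 to 15.4 CPM (median 13.4) in *Pcbp1*–/– tumors and 7.13, 12.6, 6.83, 11.0 and 10.4 CPM in *Pcbp1*+/+ tumors, with a log2 fold change of 0.49 (SE 0.17, adjusted p = 0.150). Knockout tumors 1 and 2 were below wild-type tumor 2, and the other 4 were above every wild-type tumor. *Aurkb*, the kinase of the complex, was at 14.4 to 25.2 CPM (median 19.9) and 10.7, 32.1, 15.0, 15.5 and 20.5 CPM. Wild-type tumor 2 was the highest tumor of all and wild-type tumor 1 the lowest, so the groups overlapped throughout (log2 fold change 0.07, 95% confidence interval -0.51 to 0.65, adjusted p = 0.913). *Birc5*, the survivin gene, had a log2 fold change of 0.16 and likewise its highest value in wild-type tumor 2, 26.8 CPM, and its lowest in wild-type tumor 1, 8.22 CPM. The intervals of *Aurkb* and *Birc5* do not separate no difference from one the size of that of *Cdca8*.

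At the centromere and kinetochore, *Cenpa*, *Cenpe*, *Cenpf*, *Ndc80*, *Nuf2* and *Spc25* were measured, and 2 of 6 had an unadjusted p under 0.05, *Cenpf* and *Nuf2*. *Cenpf* encodes a large protein of the outer kinetochore. Its values were 60.1 to 93.8 CPM (median 83.1) in the knockout tumors and 43.5, 72.4, 50.8, 67.7 and 50.5 CPM in the wild-type tumors, with a log2 fold change of 0.51 (SE 0.15, adjusted p = 0.103). All knockout tumors except number 1 exceeded every wild-type tumor. *Cenpa*, the histone H3 variant gene that marks centromeres, was at 23.9 to 33.6 CPM (median 27.3) against 16.5, 43.0, 23.0, 27.0 and 25.0 CPM. Wild-type tumor 2 was above all knockout tumors and wild-type tumors 3 to 5 lay at the level of the lower knockout tumors, with a log2 fold change of 0.06 (SE 0.20, adjusted p = 0.901). *Nuf2*, *Ndc80* and *Spc25*, subunits of the NDC80 complex, had log2 fold changes of 0.51, 0.43 and 0.25, and *Cenpe*, a kinetochore motor, 0.38. Each of these 4 had only 2 knockout tumors above every wild-type tumor. Without wild-type tumor 1 the values of *Ndc80*, *Spc25* and *Cenpe* were 0.21, 0.15 and 0.25, and *Ndc80* was 0.26 without wild-type tumor 2 and 0.72 without wild-type tumor 3.

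The largest log2 fold change of the spindle motors was 0.44, and 1 of 5 had an unadjusted p under 0.05. *Kif11*, the motor that pushes the spindle poles apart, was measured at 8.46 to 12.5 CPM (median 11.2) in *Pcbp1*–/– tumors and 5.57, 10.6, 6.05, 8.38 and 9.82 CPM in *Pcbp1*+/+ tumors, with a log2 fold change of 0.44 (SE 0.18, adjusted p = 0.226). Again knockout tumor 1 alone lay under the highest wild-type values. *Kif23*, a motor of the central spindle, had the smallest fold change of the 39 genes. It was at 7.17 to 9.52 CPM (median 8.00) against 5.39, 13.0, 8.67, 8.47 and 5.36 CPM, so that the wild-type tumors spread on both sides of the knockout tumors (log2 fold change 0.01, 95% confidence interval -0.46 to 0.48, adjusted p = 0.988). *Kif2c*, which takes microtubule ends apart, *Kif4*, a motor bound to chromosome arms, and *Kif20a*, a motor of the cleavage furrow, had log2 fold changes of 0.33, 0.32 and 0.35. Leaving out wild-type tumor 1 gave 0.21 for *Kif2c* and 0.17 for *Kif4*, and leaving out wild-type tumor 3 gave 0.22 for *Kif20a*. *Kif4* and *Kif20a* overlap *Pdzd11* and *Cdc23* on the opposite strand and had no whole-number count in any tumor, so their values are uncertain.

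Of the spindle-associated proteins, *Tpx2*, which activates Aurora A on microtubules, had 11.2 to 15.9 CPM (median 14.8) in the knockout tumors and 7.77, 12.1, 8.06, 11.2 and 11.7 CPM in the wild-type tumors. All but knockout tumor 1 were above every wild-type tumor, and the log2 fold change of 0.50 (SE 0.15, adjusted p = 0.113) did not pass. *Prc1*, which bundles the microtubules of the central spindle, was at 28.3 to 38.2 CPM (median 36.7) against 25.8, 41.9, 28.8, 34.0 and 27.3 CPM. Its highest value was in wild-type tumor 2 and its lowest in wild-type tumor 1, and with a log2 fold change of 0.16 (SE 0.13, adjusted p = 0.538) it had the smallest standard error of the 39 genes. Reads of *Prc1* may also be shared with *Rccd1* and *6330403N20Rik* on the other strand. *Nusap1* and *Hmmr*, microtubule-binding protein genes, had log2 fold changes of 0.35 and 0.30, and that of *Hmmr* was 0.16 without wild-type tumor 1. The positions of *Mki67*, *Cdc25c*, *Plk1*, *Cdca8*, *Nusap1*, *Anln*, *Cdc20* and *Ube2c* also overlap another gene of the table.

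In the cytokinesis group *Ect2*, the exchange factor that activates RhoA at the cell equator, was at 9.91 to 15.5 CPM (median 12.7) in *Pcbp1*–/– tumors and 5.94, 10.4, 7.36, 8.02 and 10.1 CPM in *Pcbp1*+/+ tumors, with a log2 fold change of 0.58 (SE 0.18, adjusted p = 0.108). Knockout tumor 1 was the only knockout tumor below the wild-type maximum. *Racgap1*, a subunit of the centralspindlin complex that recruits ECT2, had a log2 fold change of 0.41, the median of all 39, with 4 of 6 knockout tumors above every wild-type tumor. *Anln*, the anillin gene, was at 24.5 to 33.6 CPM (median 28.4) against 19.4, 37.6, 20.6, 27.0 and 17.5 CPM. All 6 knockout tumors were above the wild-type median, but wild-type tumor 2 was the highest of all, and the log2 fold change of 0.24 (SE 0.18, adjusted p = 0.485) did not pass. Without wild-type tumor 5 its log2 fold change was 0.16. Among the parts of the ubiquitin ligase system, *Ube2c*, the E2 enzyme of the anaphase-promoting complex, had 7.42 to 11.9 CPM (median 10.1) in the knockout tumors and 4.39, 8.54, 4.47, 6.93 and 7.23 CPM in the wild-type tumors. Only knockout tumor 6 was below wild-type tumor 2, and the log2 fold change of 0.66 (SE 0.20, adjusted p = 0.104) was the fold change next in size to that of *Melk*. *Cdc20*, the activator that hands substrates to the complex, was at 13.7 to 20.1 CPM (median 17.6) and 10.4, 16.6, 11.1, 9.57 and 17.5 CPM. Knockout tumors 1 and 6 lay below wild-type tumors 2 and 5, and knockout tumor 4 below tumor 5 (log2 fold change 0.38, SE 0.19, adjusted p = 0.301). *Cdca3*, which triggers destruction of WEE1, had a log2 fold change of 0.36, with 5 of 6 knockout tumors above every wild-type tumor.

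**Figure D3:**
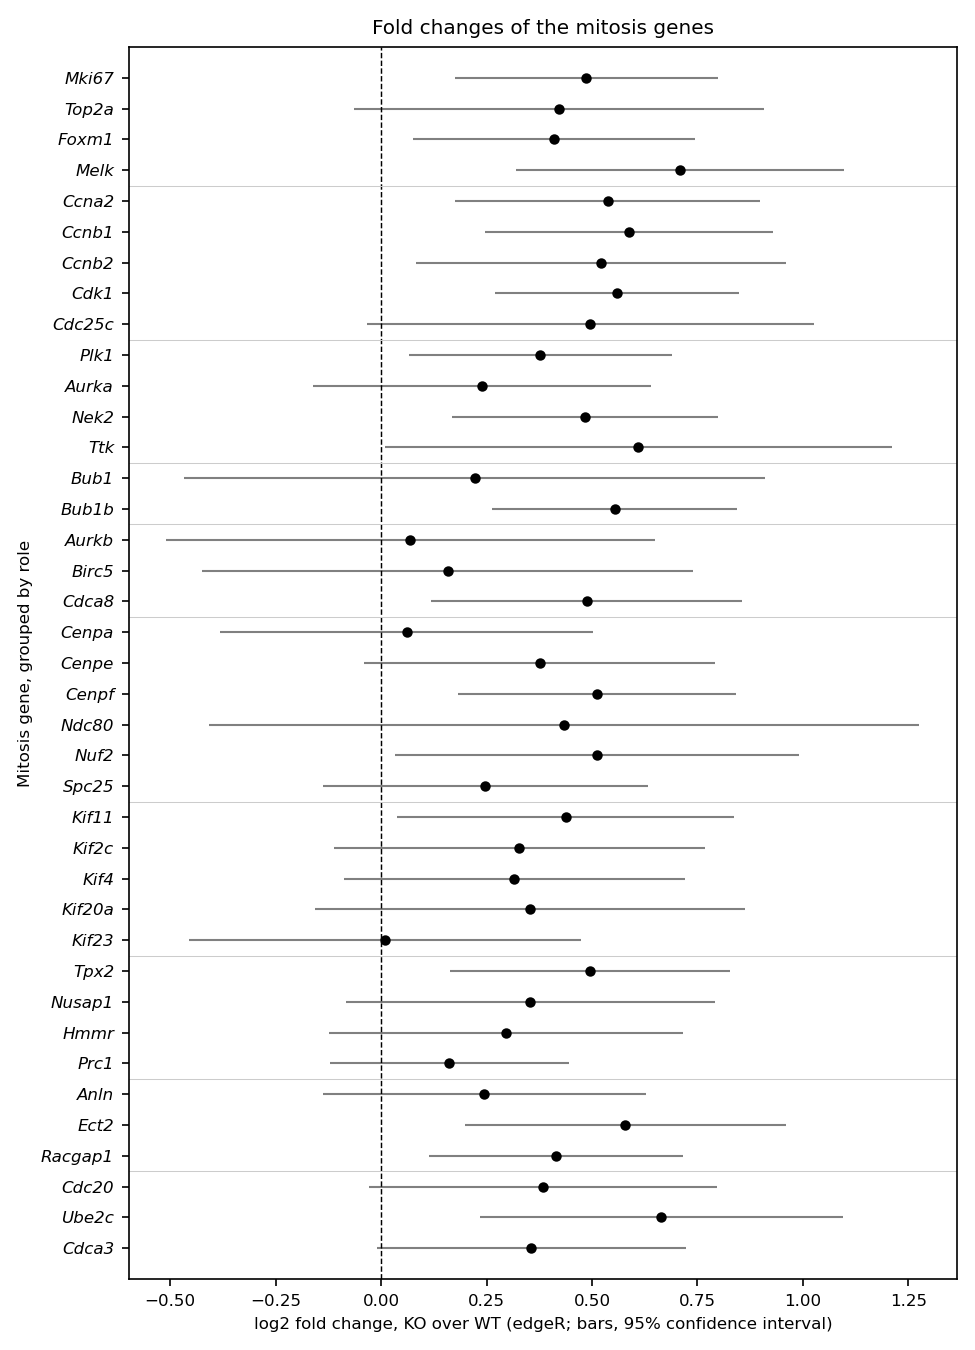
Log2 fold change of each mitosis gene, *Pcbp1*–/– over *Pcbp1*+/+, from edgeR (points), with its 95% confidence interval (bars), grouped by role; the dashed line marks no difference. All 39 points are to the right of 0, and the intervals of 19 genes leave out 0.

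The genes with the smallest fold changes were largely those in which wild-type tumor 2 was the highest of all tumors. These were *Aurka*, *Aurkb*, *Birc5*, *Cenpa*, *Kif23*, *Prc1* and *Anln*, with log2 fold changes of 0.24, 0.07, 0.16, 0.06, 0.01, 0.16 and 0.24. Without that tumor the values were 0.41, 0.34, 0.44, 0.29, 0.23, 0.28 and 0.45 in the same order. Because these genes were picked for their high value in that tumor, leaving it out raises their fold changes by construction. Without wild-type tumor 1, often the lowest, the values were 0.12, -0.09, -0.01, -0.08, -0.12, 0.08 and 0.16. For the 3 genes of the chromosomal passenger complex among the 39, the median relative to the wild-type mean was 0.77 in wild-type tumor 2. It was 0.43 in knockout tumor 4, the highest of the knockout tumors. For the cyclins with *Cdk1* and *Cdc25c*, the same tumor stood at 0.31 and knockout tumors 2 to 6 between 0.48 and 0.68. When each of the 11 tumors was left out in turn, at least 1 of them moved the log2 fold change by over 1.5 times in 16 of the 39 genes, most often wild-type tumor 1, in 15. Single tumors also decided calls. Without knockout tumor 1, 4 mitosis genes passed in edgeR, *Mki67*, *Melk*, *Cdk1* and *Bub1b*, where 97 of all genes were called higher and 215 lower. Without wild-type tumor 2 *Cdk1* and *Bub1b* passed, beside 187 and 354 of all genes, and without wild-type tumor 5 *Melk* passed, beside 113 and 321. Without wild-type tumor 1, none passed and 34 of 39 had a positive log2 fold change.

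Other genes of the cell cycle, from lists that share no gene with the 39, were read from the same test, and 149 of 177 tested had a positive log2 fold change, with a median of 0.25. Just 2 of them rose in edgeR, and none fell, beside 0.608% and 1.66% of all genes tested. *Ckap2l*, a spindle pole protein gene, was at 19.9 to 30.1 CPM (median 27.5) in *Pcbp1*–/– tumors and 13.2, 20.6, 15.4, 20.1 and 15.8 CPM in *Pcbp1*+/+ tumors, with a log2 fold change of 0.64 (SE 0.14, adjusted p = 0.0385). *Mcm6*, a subunit of the replicative helicase, was at 25.2 to 33.1 CPM (median 30.0) and 14.7, 19.8, 19.8, 22.8 and 17.4 CPM, with a log2 fold change of 0.65 (SE 0.13, adjusted p = 0.0220). All 6 knockout tumors exceeded all wild-type tumors for *Mcm6*, and 5 of 6 did for *Ckap2l*. Of the list of other spindle, motor and cytokinesis genes, 27 of 27 had positive values (median 0.33, or 0.50 without wild-type tumor 2), and of the DNA replication genes 26 of 27 (median 0.32). *Ckap2l* lost its call when any of 9 tumors was left out, and *Mcm6* without knockout tumor 3 or 4.

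In edgeR no gene passed in the other lists of the cell cycle, and of their 124 tested genes 31 had an unadjusted p under 0.05 with a positive and 2 with a negative log2 fold change. Over all genes tested these shares were 8.19% and 10.5%. DESeq2 called 7 of the 124 higher, where it called 2.31% of all genes. limma-voom called 18 higher and 2 lower, where it called 5.03% of all genes higher and 6.19% lower. The median was 0.25 over 35 other kinetochore and checkpoint genes, where *Pmf1* had the smallest p (log2 fold change 0.52, adjusted p = 0.103), and 0.22 over 20 cohesin, condensin and separase genes, with *Stag1* (0.36, adjusted p = 0.0536). Among 16 regulators of mitotic entry it was 0.26, with *Pbk*, a mitotic kinase, at 0.71 (adjusted p = 0.0522). The list of the anaphase-promoting complex, mostly its subunits, had a median of 0.10 over 17 genes, with *Ube2s* at 0.33 (adjusted p = 0.145). For the MuvB, DREAM and MYB genes, which control the mitosis genes, the median was 0.01 over 13 genes, and *Mybl2*, itself made in dividing cells, was at 6.58 to 9.14 CPM (median 7.18) against 2.74, 7.21, 4.21, 4.46 and 5.09 CPM (log2 fold change 0.64, adjusted p = 0.134). The 17 regulators of the start of the cycle had a median of 0.19, with *Ccne2*, a cyclin E gene, at 0.53 (adjusted p = 0.0740). Of the 7 CDK inhibitor genes *Cdkn2d* had the smallest p (log2 fold change 0.38, adjusted p = 0.115), and the median was 0.38. Leaving out single tumors moved some of these medians. That of the other kinetochore and checkpoint genes was 0.16 without wild-type tumor 1 and 0.38 without wild-type tumor 2, that of cohesin, condensin and separase 0.14 without wild-type tumor 1, and that of the CDK inhibitors 0.11 without knockout tumor 1. The MuvB, DREAM and MYB median ran from -0.03 to 0.07. Of the genes named here, over the 22 alternative analyses, *Pbk* passed in 5, *Stag1* and *Ccne2* in 3 each, *Mybl2* and *Pmf1* in 2 each, and *Ube2s* and *Cdkn2d* in none.

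Markers of the cell types a mammary tumor can hold were set beside these values. No gene of any of the 9 marker lists passed in edgeR, and of 61 tested 1 had an unadjusted p under 0.05 with a positive and 3 with a negative log2 fold change, beside 8.19% and 10.5% of all genes tested. DESeq2, of 71 markers it tested, and limma-voom, of 61, each called only *Muc1*, lower, where they called 3.40% and 6.19% of all genes lower. The 14 luminal epithelial markers were present in all tumors and summed to 1769, 2365, 2762, 2717, 3105 and 2590 CPM in *Pcbp1*–/– tumors 1 to 6 and 3158, 2218, 2338, 2991 and 2818 CPM in *Pcbp1*+/+ tumors 1 to 5. Their most abundant gene per kilobase, the tight junction gene *Cldn3*, was at 220.0 to 419 CPM (median 296) in the knockout tumors and 287, 226, 265, 342 and 355 CPM in the wild-type tumors. Of the 14, 6 had a positive log2 fold change and the median was -0.05. The mucin gene *Muc1* and the receptor gene *Kit* had unadjusted p-values under 0.05, and both were singled out after their values were seen. *Muc1* was at 30.3 to 58.9 CPM (median 42.1) in the knockout tumors and 114, 41.8, 61.0, 75.1 and 144 CPM in the wild-type tumors, with a log2 fold change of -0.99 (SE 0.28, adjusted p = 0.0880). Only wild-type tumor 2 lay among the knockout tumors. *Kit* was at 206 to 394 CPM (median 308) and 604, 431, 326, 533 and 231 CPM, with a log2 fold change of -0.50 (SE 0.22, adjusted p = 0.244). Wild-type tumors 3 and 5 lay within the knockout range. The 9 macrophage markers summed to 364, 255, 240.3, 175, 185 and 263 CPM in *Pcbp1*–/– tumors 1 to 6 and 247, 167, 288, 232 and 129 CPM in *Pcbp1*+/+ tumors 1 to 5, and their most abundant gene was the complement gene *C1qa*, at 43.8 to 93.9 CPM (median 56.5) and 62.6, 40.3, 72.3, 56.9 and 31.3 CPM. Of the macrophage markers 8 of 9 had a positive log2 fold change, with a median of 0.19. Knockout tumor 1, the lowest knockout tumor in most mitosis genes, had the lowest luminal sum and the highest macrophage sum of all 11 tumors. The 8 endothelial markers gave 103, 91.6, 58.5, 71.0, 64.4 and 67.6 CPM in *Pcbp1*–/– tumors 1 to 6 and 87.1, 95.2, 92.9, 109 and 62.5 CPM in *Pcbp1*+/+ tumors 1 to 5, with *Cdh5* most abundant, at 12.9 to 34.2 CPM (median 19.9) and 22.7, 35.1, 23.9, 27.9 and 18.3 CPM. Knockout tumor 1 was again the highest of its group, and 0 of 8 markers had a positive log2 fold change (median -0.22). When each tumor was left out, the median ran from -0.18 to 0.06 for the luminal list, from 0.06 to 0.36 for the macrophage list, lowest without wild-type tumor 5 and highest without wild-type tumor 3, and from -0.29 to -0.15 for the endothelial list.

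The 9 basal epithelial markers summed to 591, 173, 458, 581, 469.6 and 664 CPM in *Pcbp1*–/– tumors 1 to 6 and 1246, 421, 422, 455 and 146 CPM in *Pcbp1*+/+ tumors 1 to 5. They varied most in wild-type tumors. Their most abundant gene per kilobase over both groups, *Krt5*, a basal keratin at 11.6 to 85.8 CPM (median 78.3) in the knockout tumors, ranged there from 3.13 CPM in tumor 5 to 184 CPM in tumor 1. The next wild-type value below that of tumor 1 was 25.8 CPM. Over the 21 alternative analyses that tested *Krt5*, its log2 fold change was positive, from 0.21 to 2.08, and it passed in none (smallest adjusted p 0.130). *Krt14*, the partner keratin of *Krt5*, had the smallest p of the list and was singled out after its values were seen. It was at 3.82 to 21.9 CPM (median 14.8) in the knockout tumors and 47.6, 277, 10.9, 20.3 and 4.64 CPM in the wild-type tumors, with a log2 fold change of -2.42 (SE 0.86, adjusted p = 0.160). Wild-type tumor 2 stood far above all others, and without it the log2 fold change was -0.60. Of the 9 genes, 4 had a positive log2 fold change, and the median was -0.04. Wild-type tumor 1, the lowest tumor in most mitosis genes, had the highest basal sum and also the highest luminal sum of all tumors (3158 CPM). Wild-type tumor 2, the highest wild-type tumor in most mitosis genes, had the lowest luminal sum of the wild-type tumors (2218 CPM). The 9 fibroblast markers gave 701, 738, 653, 652, 413 and 1030 CPM in *Pcbp1*–/– tumors 1 to 6 and 414, 544, 725, 762 and 424 CPM in *Pcbp1*+/+ tumors 1 to 5, and *Col1a1* was at 129 to 235 CPM (median 194) and 107, 208, 171, 206 and 140.5 CPM. Of these, 8 of 9 had a positive log2 fold change, and the median was 0.32. *Fbln1*, the fibulin 1 gene, had the smallest p of the list and was also singled out after its values were seen. Its level was 3.30 to 7.03 CPM (median 4.66) in the knockout tumors and 3.75, 2.66, 3.94, 2.00 and 1.96 CPM in the wild-type tumors, with a log2 fold change of 0.78 (SE 0.26, adjusted p = 0.130). All knockout tumors except number 2 were above every wild-type tumor. The 6 adipocyte markers summed to 15.3 to 40.1 CPM in knockout tumors and to 20.2, 14.2, 80.3, 29.5 and 26.6 CPM in wild-type tumors, with *Lipe* most abundant and *Adipoq* and *Cidec* at 0 in some tumors. None of the 6 had a positive log2 fold change in edgeR (0 of 6, median -0.72), but when each tumor was left out the median ran from -1.45 without knockout tumor 1 to 0.43 without wild-type tumor 3. The fibroblast median was 0.15 without knockout tumor 6 and 0.17 without wild-type tumor 1, and the basal median ran from -0.22 to 0.53, highest without wild-type tumor 1. Lymphocyte and neutrophil markers were low. The 9 T cell markers summed to at most 11.1 CPM, with *Lck* most abundant and *Cd3d*, *Cd2* and *Cd8b1* at 0 in some tumors. The 4 neutrophil markers in the table summed to at most 8.63 CPM, in wild-type tumor 2, with *S100a8* most abundant and *S100a9* and *Cxcr2* at 0 in some tumors. The 3 B cell markers in the table summed to 11.0 to 32.8 CPM, mostly from *Blnk*, an adaptor gene that other cells can also express. The 4 T cell markers tested had a median log2 fold change of -0.10, from -0.26 to 0.01 when a tumor was left out. A single gene was tested of the B cell markers, *Blnk* (log2 fold change 0.44), and of the neutrophil markers, *Csf3r* (log2 fold change -0.34, from -0.54 to -0.09 when a tumor was left out). The part of these cell types in the mitosis gene values was not tested.

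The promoters of the mitosis genes were examined for letters that their names did not select. Of the 39 genes, 33 had a promoter in the RefSeq table used (GRCm38.p6, 250 bases before to 50 after the start, 35 windows), and *Cdc25c*, *Foxm1*, *Tpx2*, *Ccna2*, *Kif20a* and *Aurkb* did not enter the count. The letters TTTGAA or TTCGAA, those of the cell cycle homology region through which MuvB binds, were sought on both strands. They were in at least 1 window of 26 of 33 genes (80.0% of windows), compared with 19.2% of the 32851 windows of the whole table and 36.1% of the windows of the other cell cycle genes. In 24 of the 26 genes a match began within 60 bases of the start. The letters CCAAT, bound by NF-Y, were also in 26 of 33 genes (80.0% of windows), against 37.4% of all windows, 56.0% of the windows of the other cell cycle genes and 66.7% of those of the DNA replication genes alone. Both were together in 71.4% of the mitosis gene windows, 25.3% of the windows of the other cell cycle genes and 7.52% of all windows. The E2F-type letters TTTCCCGC or TTTGGCGC were in no mitosis gene window, in 33.3% of the windows of DNA replication genes and in 1.56% of all windows. Only these E2F spellings were sought. The related spelling TTTCGCGC was not counted, and it occurs in the *Cdk1* stretch printed below, so E2F-type letters are not absent from these promoters. These are matches of letters, and no binding was measured.

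Promoters are printed for the 4 genes with the smallest p among those with a homology region match, to show where these letters lie. Each kind of letters was in 26 of 33 genes and both in 23. Each is given 5′ to 3′ on the strand of the gene, from 200 bases before to 10 bases after the RefSeq start in GRCm38.p6, with both kinds of match in capitals (ATTGG is CCAAT on the other strand). *Cdk1* lies at chr10:69352903-69353112 (minus strand), *Bub1b* at chr2:118598011-118598220 (plus strand), *Mki67* at chr7:135716370-135716579 (minus strand) and *Cenpf* at chr1:189688077-189688286 (minus strand). In *Cdk1* the homology region letters begin 71 and 15 bases before the start, in *Bub1b* 188 before, in *Mki67* 116 and 98 before, and in *Cenpf* at base 3 of the transcript.
Cdk1: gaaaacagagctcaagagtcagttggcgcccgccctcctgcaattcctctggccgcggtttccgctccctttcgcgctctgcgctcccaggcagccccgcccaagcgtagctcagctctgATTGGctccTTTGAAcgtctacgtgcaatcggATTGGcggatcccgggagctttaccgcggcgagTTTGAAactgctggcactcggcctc
Bub1b: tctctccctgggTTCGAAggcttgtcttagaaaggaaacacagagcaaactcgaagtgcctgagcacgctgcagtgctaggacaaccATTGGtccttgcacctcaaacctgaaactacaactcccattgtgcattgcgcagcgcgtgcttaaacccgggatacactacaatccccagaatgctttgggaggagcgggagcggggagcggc
Mki67: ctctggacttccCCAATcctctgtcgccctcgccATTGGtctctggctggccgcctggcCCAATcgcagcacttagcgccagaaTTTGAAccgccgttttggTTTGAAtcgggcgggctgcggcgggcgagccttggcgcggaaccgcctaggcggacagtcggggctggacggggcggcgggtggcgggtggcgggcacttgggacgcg
Cenpf: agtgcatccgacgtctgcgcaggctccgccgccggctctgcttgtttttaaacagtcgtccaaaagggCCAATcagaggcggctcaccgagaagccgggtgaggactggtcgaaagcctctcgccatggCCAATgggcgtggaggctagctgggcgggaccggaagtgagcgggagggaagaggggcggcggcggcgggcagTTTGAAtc
The CCAAT matches nearest to the start begin 48 bases before it in *Cdk1*, 113 in *Bub1b*, 141 in *Mki67* and 71 in *Cenpf*. *Bub1b* had another homology region match at base 41 of the transcript, beyond the printed stretch. *Melk* and *Ccnb1*, with p-values as small as these, had no homology region match in their windows.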

How the data were processed

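RNA of 11 tumors was analysed, 6 *Pcbp1*–/– and 5 *Pcbp1*+/+. Per the labels and the study's methods, the authors extracted RNA with Trizol, sequenced stranded poly(A) libraries in paired ends, checked reads with FastQC, aligned them to GRCm38 with Bowtie2 and analysed them in Partek; the counting step and annotation are not given in the sources used here. The authors deposited estimated counts per gene, of which 18.1% to 19.8% per tumor were not whole, and CPM made from them. Some counts lay just off a whole number, such as 855.999 for *Stag1* in 1 tumor, so this share depends on the tolerance used. Here counts were rounded and tested with edgeR 4.0.16 (filterByExpr, TMM, quasi-likelihood F test, R 4.3.3), p-values being adjusted over 19232 genes by the Benjamini-Hochberg method at 0.05. DESeq2 1.42.0, limma 3.58.1, other scalings and filters, a replicate block and leaving out each tumor were alternatives. Scripts were tested on simulated counts. Transcript lengths and base composition came from GENCODE by Ensembl identifier.

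The mitosis genes and all lists were chosen with earlier results of these data known. Every mitosis gene is named. Values of each wild-type tumor and the range and median of the knockout tumors are given for the genes of each role with the smallest and the largest p, and for *Mki67*, *Top2a* and *Pcbp1*; companion lists give the genes that passed, or the one with the smallest p; marker lists give the most abundant gene per kilobase, and *Krt14*, *Muc1*, *Kit* and *Fbln1*, the 4 with an unadjusted p under 0.05, and *Csf3r*, the 1 neutrophil marker tested, were added after their values were seen. Of the 39 genes, 13 overlap another gene. It is not stated whether counting used strand, so reads from the bases that such a pair shares may not be told apart.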

Additional observations from a re-analysis of the deposited data

Results flagged for a closer look

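The highest or lowest tumor of a group stood far from the nearest other tumor, by Dixon's criterion, in 10 of 166 groups of values examined; chance gives about 1 in 20, or 8.30. Among the mitosis genes this was *Mki67* in *Pcbp1*–/– tumor 1, at 318 CPM, the next knockout tumor being at 457 CPM. The CPM summed over the 39 mitosis genes was also apart in *Pcbp1*–/– tumor 1, at 829 with the next knockout tumor at 1097. *Mki67* contributes much of that sum, so these are not independent. The same tumor had the highest sum of the CDK inhibitor genes, 333 CPM against 254 in the next knockout tumor and 273 in *Pcbp1*+/+ tumor 2, the next of all tumors.

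Marker genes gave the other values. *Pcbp1*+/+ tumor 1 was apart in the summed basal epithelial markers, at 1246 CPM against 455, and in *Krt5*, at 184 against 25.8 CPM. *Krt14* was apart in *Pcbp1*+/+ tumor 2, at 277 against 47.6 CPM. *Pcbp1*–/– tumor 2 had the lowest *Krt5* of its group, 11.6 CPM. *Pcbp1*+/+ tumor 3 had the highest adipocyte sum, 80.3 CPM against 29.5. *S100a8*, a neutrophil gene near the detection limit, was apart in *Pcbp1*–/– tumor 2, at 1.27 CPM, and in *Pcbp1*+/+ tumor 2, at 2.37 CPM. The part of these cell types in the mitosis gene values was not tested.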

How the results depend on the processing

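The median log2 fold change of the 39 mitosis genes moved little. It lay between 0.40 and 0.52 over the 11 alternatives that kept all tumors or the 10 numbered 1 to 5. When each tumor was left out it lay between 0.31 and 0.50. No alternative called a mitosis gene lower. The count called higher, 0 in edgeR, was 11 in DESeq2, 19 in limma-voom with sample quality weights, 2 with protein-coding genes only, 2 with a GC content correction that was added after seeing the data, and 1 each with library size only, upper-quartile factors, a filter of 1 CPM in 5 tumors, and limma on log2 CPM with 1 or 0.1 added. It stayed 0 without a filter. Leaving out each tumor gave 0 to 4, with 4 without *Pcbp1*–/– tumor 1, 2 without *Pcbp1*+/+ tumor 2 and 1 without *Pcbp1*+/+ tumor 5. Over all genes, counts higher and lower were 101 and 257 with protein-coding genes only, 124 and 315 with the GC content correction, and 89 and 246 with library size only. They were 112 and 322 with upper-quartile factors, 122 and 331 with the 1 CPM filter, and 97 and 250 without a filter. With limma on log2 CPM they were 92 and 228 with 1 added and 92 and 226 with 0.1 added. The cause of the differences between tools was not tested.

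Over all genes, 476 were called higher and 700 lower in DESeq2, and 968 and 1190 in limma-voom, against 117 and 319 in edgeR. Leaving out each tumor gave 41 to 187 higher and 144 to 389 lower. There were 97 higher and 215 lower without *Pcbp1*–/– tumor 1, 152 and 389 without tumor 2, and 113 and 321 without *Pcbp1*+/+ tumor 5. The counts higher and lower were 42 and 144 without *Pcbp1*–/– tumor 3, 46 and 148 without tumor 4, 48 and 163 without tumor 5, and 69 and 212 without tumor 6; 54 and 171 without *Pcbp1*+/+ tumor 1, 187 and 354 without tumor 2, 41 and 184 without tumor 3, and 42 and 148 without tumor 4.

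With the replicate number as a replicate block, over the 10 tumors numbered 1 to 5, 42 genes were called higher and 118 lower, 0 mitosis genes passed, and their median was 0.46. Deviations of same-numbered tumors correlated at 0.13, 0.09, -0.07, -0.14 and 0.28, and 2 of 5 correlated best with their own number. These few values show no clear pairing by number and cannot exclude one.

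Signs of the smallest fold changes were not stable. *Kif23* was -0.0084 with the GC content correction. When each tumor was left out, *Kif23* ran from -0.12 to 0.23, *Aurkb* from -0.090 to 0.34, *Cenpa* from -0.085 to 0.29, *Birc5* from -0.014 to 0.44 and *Bub1* from -0.015 to 0.41. The other 34 mitosis genes had positive values in all alternatives. Of the marker genes, *C1qa* was -0.073 and *Lck* 0.11 in limma-voom, against 0.19 and -0.083 in edgeR, and *Lck* ran from -0.24 to 0.083 when a tumor was left out. *Pcbp1* kept its direction and its call in all 22 alternatives, from -3.60 to -3.34. The cause of these changes was not tested. Depth limits the lowest genes, *Ndc80* above all, whose lowest count was 4.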
